A study of Mus musculus with 6 samples.

Results

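The genes that turn arachidonic acid into leukotrienes and prostaglandins were read in leukemia-initiating cells (LICs) of the MLL-AF9 mouse model of acute myeloid leukemia. The 10 genes were taken by symbol, with no threshold on their values, though earlier results of these data were known: Pla2g4a, Alox5, Alox5ap, Lta4h, Ltc4s, Alox15, Ptgs1, Ptgs2, Ptges and Hpgds. All 10 were among the 27179 genes listed, and 6 of them were abundant enough to be tested. Total RNA was sequenced from 3 libraries labelled Asic3-null, referred to below as labelled null, and 3 labelled WT. In this model a retrovirus carrying MLL-AF9 and YFP was put into lineage-negative fetal liver cells of Asic3+/+ or Asic3-/- mice, and the cells were given to lethally irradiated C57BL/6 recipients. The LICs were the YFP+Mac-1+c-Kit+ fraction, from C57BL/6 mice stated to be 8 weeks old, so both groups carried MLL-AF9 and YFP and differed by label only in Asic3. The YFP gate selects cells of donor origin that took up the retrovirus, and the labels do not say whether replicates came from separate mice, so p-values measure the spread between these samples, which may be technical.

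Arachidonic acid is cut out of membrane phospholipids by cytosolic phospholipase A2, the product of Pla2g4a. In the 5-lipoxygenase arm, ALOX5 oxidizes it to leukotriene A4 with the help of the membrane protein that Alox5ap encodes, and LTA4H or LTC4S then forms leukotriene B4 or C4. In the cyclooxygenase arm, PTGS1 (the constitutive COX-1) or PTGS2 (the inducible COX-2) forms prostaglandin H2, which PTGES and HPGDS turn into prostaglandins E2 and D2. Neutrophils, monocytes and mast cells are known for making leukotrienes, and platelets for high COX-1.

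The targeted gene and the sex-linked genes limit what the labels can be taken to mean. Asic3 had 9.12, 4.11 and 6.58 RPKM (reads per gene, corrected for the gene's length and the library's size) in libraries labelled null and 1.22, 1.85 and 0.435 RPKM in libraries labelled WT. It was thus higher in libraries labelled null (adjusted p = 0.0260, limma), against the label. Asic3 lies within the span of Cdk5, and values per exon were not analysed here. Whether the group labels were exchanged or the targeted allele was still transcribed was not tested, and exchanged labels would turn each direction given here. The Y-linked genes Ddx3y, Eif2s3y, Kdm5d and Uty were without reads in all libraries labelled null and reached sums of 81.4 to 118 RPKM in libraries labelled WT, so genotype and sex cannot be told apart. Every direction below is by label. The RPKM values corresponded to whole reads, from 1947168 to 2381861 per library, and limits set by a count of 0 reads cover counting error only.

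The promoter windows of the genes are shown because 1 transcription factor of the myeloid lineage, PU.1, has a short core that can be searched in them. Windows of 250 bases before the annotated start were read from RefSeq for GRCm38.p6, and 8 of the 10 genes had one. The 4 printed here belong to the tested genes with a window and a value below 0 in the comparison of the groups. They are chr6:116461179-116461428 on the minus strand for Alox5, chr10:93453146-93453395 on the plus strand for Lta4h, chr2:36230176-36230425 on the plus strand for Ptgs1 and chr2:30903298-30903547 on the minus strand for Ptges. For Ptgs1 and Ptges the start used lies inside the annotated span of the gene. Each is written 5′ to 3′ toward the start, and capitals mark the PU.1 core GAGGAA or, on the other strand, TTCCTC.
Alox5: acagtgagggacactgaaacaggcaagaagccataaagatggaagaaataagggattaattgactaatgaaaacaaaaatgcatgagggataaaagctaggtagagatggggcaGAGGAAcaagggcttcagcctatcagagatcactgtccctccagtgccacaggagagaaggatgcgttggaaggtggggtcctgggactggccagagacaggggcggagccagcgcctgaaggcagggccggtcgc
Lta4h: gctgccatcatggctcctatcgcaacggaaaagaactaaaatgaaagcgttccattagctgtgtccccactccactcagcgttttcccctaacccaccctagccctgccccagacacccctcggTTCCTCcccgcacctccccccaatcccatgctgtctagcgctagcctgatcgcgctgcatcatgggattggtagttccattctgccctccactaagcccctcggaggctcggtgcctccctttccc
Ptgs1: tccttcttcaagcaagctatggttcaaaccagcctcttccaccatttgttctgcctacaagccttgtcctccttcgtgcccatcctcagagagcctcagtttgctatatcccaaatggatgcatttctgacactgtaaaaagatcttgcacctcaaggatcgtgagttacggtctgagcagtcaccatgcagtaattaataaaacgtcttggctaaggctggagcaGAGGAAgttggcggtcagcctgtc
Ptges: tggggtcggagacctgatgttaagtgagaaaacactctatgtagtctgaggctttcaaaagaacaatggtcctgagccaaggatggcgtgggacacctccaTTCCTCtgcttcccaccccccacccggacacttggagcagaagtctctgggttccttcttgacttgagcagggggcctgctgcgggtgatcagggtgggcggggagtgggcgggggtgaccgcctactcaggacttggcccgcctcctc

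The core began 136 bases before the start in Alox5 and 24 bases before it in Ptgs1, on the strand of the gene. On the opposite strand it lay 126 bases before the start of Lta4h and 149 before that of Ptges. It was also found in the windows of Hpgds and Ptgs2, which made 6 of 8 genes, beside 25.9% of all 27025 genes with a window in the same table. The GC box GGGCGG was found in Alox5, Ptges and Ptgs2 and in 35.4% of all genes. The C/EBP motif TTNNGCAA was found in Hpgds and Ptgs2 and in 10.8% of all genes. The TATA box TATAAA was found only in Pla2g4a among the 8 and in 14.3% of all genes, and the core TGACG of cAMP response elements in none of the 8 and in 19.8% of all genes. Both strands were searched and the motifs do not contain each other. These matches describe letters in a window and give no information on binding in these cells.

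The genes differed in level by more than 4 orders of magnitude, which can be compared between genes because RPKM is scaled to gene length. Over the 6 libraries the mean level was 552 RPKM for Alox5ap and 228 RPKM for Lta4h, ranks 103 and 310 of the 27179 genes. Ptgs1 followed with 22.6 RPKM, then Alox5 with 8.67, Pla2g4a with 7.41 and Ptges with 2.93 RPKM. Ltc4s, at 0.918 RPKM, and Ptgs2, at 0.598 RPKM, lay under the mean of 1 RPKM required for testing, and Alox15 and Hpgds had 1 read each in all 6 libraries together. Alox5 and Pla2g4a overlapped in their ranges in each group, as did Ltc4s and Ptgs2, so that the order of these neighbors is not fixed by the data. Alox5ap and Lta4h together made up 93.9% to 95.6% of the summed RPKM of the 10 genes in every library, so that any sum over the genes is mostly a statement on these 2.

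**Figure D1:**
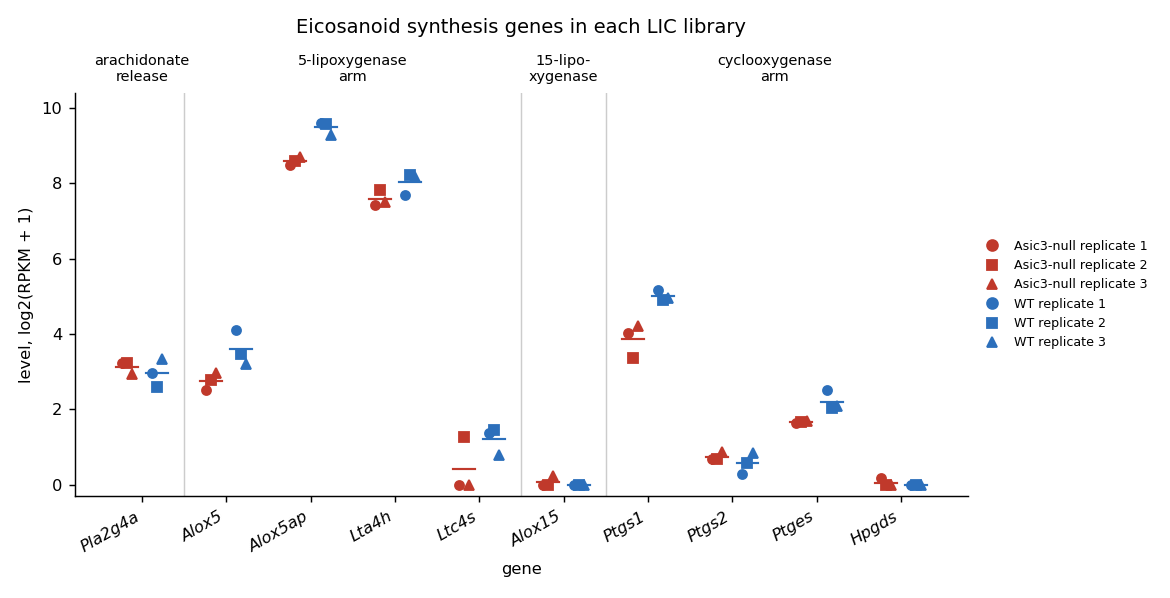
Level of each of the 10 genes as log2(RPKM + 1) in the 3 libraries labelled Asic3-null (red) and the 3 labelled WT (blue), grouped by role, with a short bar at the mean of each group. Alox5ap and Lta4h stand far above the rest, and the groups are apart without overlap for Alox5, Alox5ap, Ptgs1 and Ptges.

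Of the 6 tested genes, Alox5ap and Ptgs1 were lower in libraries labelled null and none was higher. These 2 calls, at an adjusted p under 0.05 from limma over all 12037 tested genes, stand beside 2.82% of all tested genes called lower and 0.523% called higher. No tested gene of the 6 was higher at an unadjusted p under 0.05 either, and 5 were lower at that level, beside 9.45% of all tested genes. The groups did not overlap, with libraries labelled null lower, for 4 of the 6 (Alox5, Alox5ap, Ptgs1 and Ptges), beside 11.4% of all tested genes, while none lay higher without overlap, beside 11.2%. The median log2 fold change of the 6 was -0.69, and that of all tested genes was 0.03. With 3 against 3 libraries an exact permutation test cannot give a two-sided p below 0.10, which each of these 4 genes reached. In bulk RNA, fewer cells of a type and less RNA per cell cannot be told apart.

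**Figure D2:**
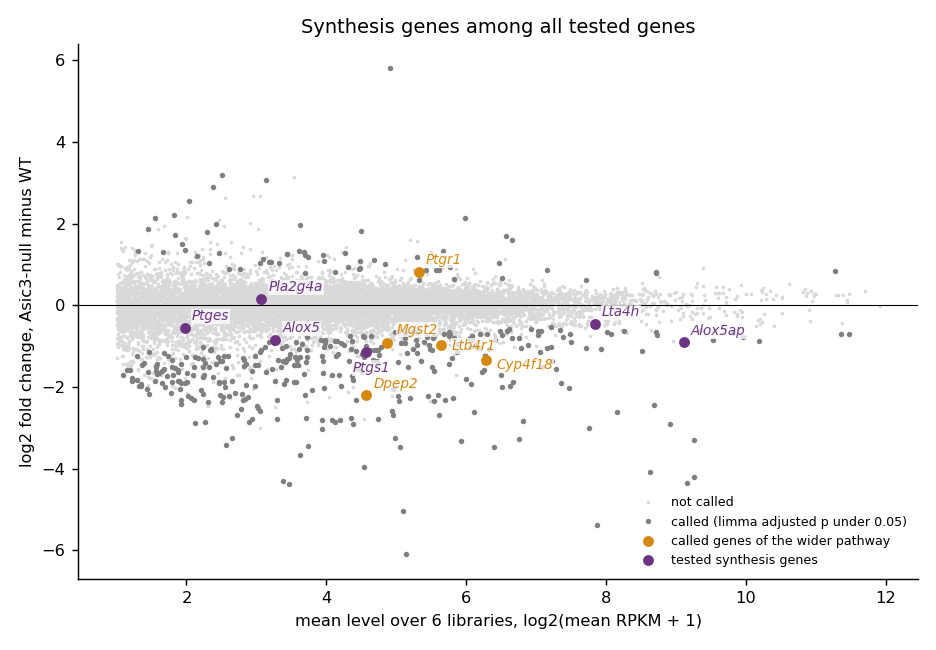
Log2 fold change of each of the 12037 tested genes (Asic3-null minus WT, on log2(RPKM + 1)) against its mean level, with genes called by limma in dark gray, the 6 tested synthesis genes in purple and the 5 called genes of the wider pathway in orange. Alox5ap, at the far right, has a log2 fold change of -0.90, and Ptgs1 has -1.14 at a lower level.

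Arachidonic acid release did not separate the groups at the level of its main enzyme. Pla2g4a (Entrez 18783, GRCm38 chromosome 1, 149829618 to 149961290) had 8.35, 8.41 and 6.73 RPKM in libraries labelled null and 6.85, 5.05 and 9.05 RPKM in libraries labelled WT. The groups overlapped, with the highest and the lowest value both in WT. The log2 fold change was 0.17 (standard error 0.23, 95% interval -0.35 to 0.69, adjusted p = 0.765, limma), so that neither a moderate rise nor a small drop lies outside the interval. Its value was -0.015 without WT replicate 2 and 0.35 without WT replicate 3.

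In the 5-lipoxygenase arm, Alox5ap, which encodes the 5-lipoxygenase activating protein, fell. Alox5ap (Entrez 11690, chromosome 5, 149265004 to 149288153) had 354, 383 and 416 RPKM in libraries labelled null and 776, 755 and 625 RPKM in libraries labelled WT. All 3 values labelled null lay under all 3 labelled WT, with a gap of more than 200 RPKM between the groups. Group means were 384 ± 31.0 and 719 ± 82.1 RPKM (mean ± SD, n = 3 each), which makes the level 1.87-fold lower. The log2 fold change was -0.90 (standard error 0.13, 95% interval -1.18 to -0.61, adjusted p = 0.00650, limma). Between 700 and 1394 reads per library lay behind these values, and the gene stayed called in all 13 alternatives tried, with an adjusted p from 0.00234 to 0.0418 (limma). Its exons share 189 bases with an antisense gene, Gm19719, whose reads this kit, which does not mark strand, cannot keep apart.

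Alox5, the 5-lipoxygenase itself, had a similar difference at a much lower level and was not called. Alox5 (Entrez 11689, chromosome 6, 116410071 to 116461178) had 4.74, 5.94 and 6.78 RPKM in libraries labelled null and 16.1, 10.2 and 8.22 RPKM in libraries labelled WT. The groups did not overlap, and WT replicate 1 lay well above the other WT libraries. Group means were 5.82 ± 1.03 and 11.5 ± 4.13 RPKM (n = 3 each, SD), with a log2 fold change of -0.84 (standard error 0.26, 95% interval -1.42 to -0.26, adjusted p = 0.145, limma). The values rest on 31 to 96 reads per library, and no alternative called the gene, with an adjusted p from 0.105 to 0.344 (limma).

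Lta4h, the hydrolase that makes leukotriene B4 from leukotriene A4, overlapped between the groups. Lta4h (Entrez 16993, chromosome 10, 93453396 to 93484896) had 171, 227 and 180 RPKM in libraries labelled null and 207, 296 and 288 RPKM in libraries labelled WT. Asic3-null replicate 2 lay above WT replicate 1. The log2 fold change was -0.44 (standard error 0.17, 95% interval -0.84 to -0.05, adjusted p = 0.253, limma), which was not called although 817 to 1411 reads per library were behind it. Ltc4s (Entrez 17001, chromosome 11, 50236461 to 50238532), the synthase of leukotriene C4, was barely detected. It had 0, 2 and 0 reads in libraries labelled null and 2, 2 and 1 in libraries labelled WT, and a difference was not detectable at this depth.

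Alox15 (Entrez 11687, chromosome 11, 70344147 to 70390538), the 12/15-lipoxygenase of macrophages and eosinophils, had 1 read, in Asic3-null replicate 3. The 0 reads of the 3 WT libraries allow a level of up to 0.194 RPKM, taking 3 reads over the group as the limit. No fold was formed from these counts.

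In the cyclooxygenase arm, Ptgs1 fell. Ptgs1 (Entrez 19224, chromosome 2, 36216742 to 36258593) had 15.2, 9.24 and 17.5 RPKM in libraries labelled null and 34.7, 29.0 and 29.9 RPKM in libraries labelled WT. The groups did not overlap, and Asic3-null replicate 2 was the lowest. Group means were 14.0 ± 4.29 and 31.2 ± 3.04 RPKM (mean ± SD, n = 3 each), which makes the level 2.23-fold lower. The log2 fold change was -1.14 (standard error 0.23, 95% interval -1.65 to -0.63, adjusted p = 0.0294, limma), on 63 to 209 reads per library. The call held in 7 of 13 alternatives. Leaving out Asic3-null replicate 1 ended it (adjusted p = 0.0693, limma), as did leaving out WT replicate 1, 2 or 3 (0.132, 0.101 and 0.0928). It also ended when low genes were kept (0.0620) or the intensity trend was dropped (0.0567), while the direction held in all 13. Its exons share 148 bases with the antisense gene Gm43621.

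The inducible cyclooxygenase was near the limit of detection. Ptgs2 (Entrez 19225, chromosome 1, 150100031 to 150108234) had 3, 3 and 4 reads in libraries labelled null and 1, 2 and 4 in libraries labelled WT, or 0.624, 0.607 and 0.821 against 0.229, 0.495 and 0.814 RPKM. The groups overlapped, and the gene was not tested. Ptgs1 was therefore the main cyclooxygenase transcript in every library, at 15.2 to 24.4 times the RPKM of Ptgs2 in libraries labelled null and 36.8 to 151 times in libraries labelled WT, with few Ptgs2 reads behind either ratio.

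Ptges, the inducible prostaglandin E synthase, was low in all libraries and was not called. Ptges (Entrez 64292, chromosome 2, 30889471 to 30931020) had 2.13, 2.19 and 2.22 RPKM in libraries labelled null and 4.69, 3.10 and 3.24 RPKM in libraries labelled WT. The groups did not overlap, and libraries labelled null lay close together. Its log2 fold change of -0.54 (adjusted p = 0.310 in limma, standard error 0.24) rested on 18 to 36 reads per library. Hpgds (Entrez 54486, chromosome 6, 65117293 to 65144981), the prostaglandin D synthase of mast cells and other hematopoietic cells, had 1 read, in Asic3-null replicate 1, and the 0 reads in the WT libraries allow up to 0.142 RPKM.

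Both arms were lower in sum in libraries labelled null, and the balance between them overlapped between the groups. The 4 genes of the 5-lipoxygenase arm summed to 530, 617 and 603 RPKM in libraries labelled null and to 1001, 1063 and 922 RPKM in libraries labelled WT, a sum that Alox5ap and Lta4h make up almost whole. The 4 genes of the cyclooxygenase arm summed to 18.1, 12.03 and 20.6 RPKM against 39.6, 32.6 and 34.0 RPKM, with 76.8% to 85.2% and 87.6% to 89.0% of it from Ptgs1. In both arms every library labelled null lay under every WT library, by 1.71-fold and 2.09-fold in the means. The ratio of the first sum to the second was 29.2, 51.3 and 29.3 against 25.3, 32.6 and 27.1. These ratios overlapped between the groups, and the highest was that of Asic3-null replicate 2, the library with the lowest Ptgs1. The ratio of Alox5ap to Ptgs1 overlapped as well, at 23.2, 41.5 and 23.7 against 22.4, 26.0 and 20.9, as did that of Alox5ap to Alox5, at 74.7, 64.5 and 61.4 against 48.1, 74.2 and 76.0. The sums and ratios are descriptions and were not tested.

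**Figure D3:**
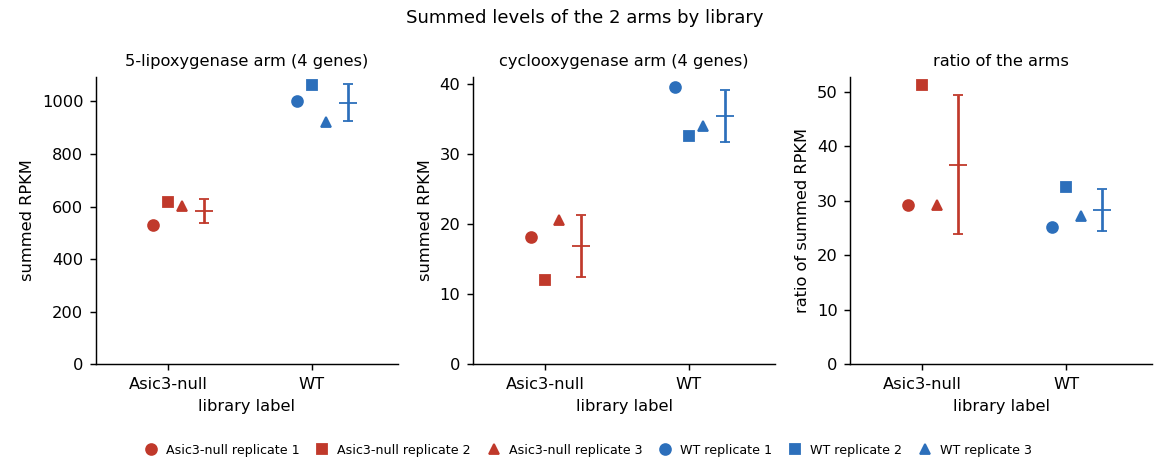
Summed RPKM of the 5-lipoxygenase arm (Alox5, Alox5ap, Lta4h, Ltc4s), of the cyclooxygenase arm (Ptgs1, Ptgs2, Ptges, Hpgds) and their ratio in each library, with the mean and SD of each group beside the points (n = 3). Both sums are apart between the groups and the ratio overlaps, with Asic3-null replicate 2 at 51.3.

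Of 54 further genes of the wider pathway, 44 had reads and 29 were tested, of which 4 were lower, 1 was higher and 24 were not called, with a median log2 fold change of -0.10, beside 2.82% of all tested genes called lower and 0.523% called higher. Without overlap, 8 of the 29 lay lower and 3 higher in libraries labelled null, beside 11.4% and 11.2% of all tested genes, so the number higher without overlap was near the background. Among the 8 tested genes of leukotriene formation, export and turnover, which act on leukotriene B4, on leukotriene C4 and its products or with 5-lipoxygenase, 3 fell and 1 rose, and among the 2 tested leukotriene receptors 1 fell. None of the 7 tested genes of arachidonate release and uptake, the 6 tested genes of other prostanoid synthases, the 3 of prostanoid turnover and transport and the 3 prostanoid receptors was called (limma), and 1 lower and 2 higher among the first had an unadjusted p under 0.05.

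Dpep2, a membrane dipeptidase that converts leukotriene D4 to E4, fell furthest among the tested genes of the wider pathway. It had 6.60, 8.80 and 6.27 RPKM in libraries labelled null and 54.7, 34.6 and 25.4 RPKM in libraries labelled WT, with no overlap. Group means were 7.22 ± 1.37 and 38.2 ± 14.98 RPKM (mean ± SD, n = 3 each), which makes the level 5.29-fold lower (log2 fold change -2.20, standard error 0.27, adjusted p = 0.00302, limma), and the gene stayed called in all 13 alternatives. Its exons share 474 bases with Gm45752 and 150 with Dus2, both on the other strand, and 241 with Dpep2nb and 131 with Gm22972 on its own strand, so reads in these bases cannot be assigned with certainty. Cyp4f18, a neutrophil enzyme that oxidizes leukotriene B4, also fell. It had 32.7, 43.2 and 52.0 RPKM against 148, 98.1 and 85.4 RPKM (log2 fold change -1.34, standard error 0.23, adjusted p = 0.0173, limma), with no overlap. Leaving out Asic3-null replicate 1 or 2 ended its call (adjusted p = 0.0614 and 0.0588, limma), as did leaving out WT replicate 1 or 2 (0.0568 and 0.0632), and the call was lost in 5 of 13 alternatives in all. Its exons share 181 bases with the antisense gene Zfp961.

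Ltb4r1, the high-affinity receptor of leukotriene B4, fell. It had 23.9, 40.7 and 35.8 RPKM in libraries labelled null and 64.6, 63.1 and 65.8 RPKM in libraries labelled WT (log2 fold change -0.96, standard error 0.19, adjusted p = 0.0307, limma), with no overlap. The call was lost in 7 of 13 alternatives, among them no filter on low values (adjusted p = 0.0589, limma) and no intensity trend (0.0688). Leaving out Asic3-null replicate 3 ended it (adjusted p = 0.0963, limma), as did leaving out WT replicate 1, 2 or 3 (0.120, 0.111 and 0.104). Mgst2, a microsomal glutathione transferase that can also form leukotriene C4, fell from 46.8, 27.9 and 38.0 RPKM in the WT libraries to 19.8, 19.2 and 18.1 RPKM in libraries labelled null (log2 fold change -0.92, standard error 0.19, adjusted p = 0.0382, limma). Its call was lost in 9 of 13 alternatives, limma-voom on the recovered reads among them (0.0768), and with Asic3-null replicate 1, 2 or 3 left out the adjusted p was 0.10, 0.101 and 0.149 (limma), and with WT replicate 1 or 3 left out 0.122 and 0.124.

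Ptgr1, a reductase that inactivates leukotriene B4 and prostaglandins, was the called gene that rose. It had 40.6, 49.1 and 61.1 RPKM in libraries labelled null and 26.0, 28.6 and 28.1 RPKM in libraries labelled WT (log2 fold change 0.83, standard error 0.17, adjusted p = 0.0326, limma), with no overlap. The call was lost in 8 of 13 alternatives, and with Asic3-null replicate 2 or 3 left out the adjusted p was 0.0876 and 0.117 (limma). With WT replicate 1, 2 or 3 left out it was 0.124, 0.106 and 0.0932.

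The remaining genes of the pathway were not called. Cotl1, an actin-binding protein that also binds 5-lipoxygenase, had 289, 348 and 321 RPKM against 460, 412 and 440 RPKM, with no overlap (log2 fold change -0.46, adjusted p = 0.0773, limma). Cysltr1, a receptor of cysteinyl leukotrienes, had a log2 fold change of -0.46 (adjusted p = 0.482, limma), which was -0.30 without WT replicate 1, -0.82 at a pseudocount of 0.1 and -0.84 with limma-voom. Among the genes that handle arachidonic acid in phospholipids, Mboat7 and Lpcat3 had log2 fold changes of -0.40 and 0.34 (adjusted p = 0.240 and 0.246, limma), each with no overlap, and they share exon bases with the antisense genes Tsen34 (277 bases) and Emg1 (334 bases). Of the lipoxygenases other than Alox5 and Alox15, 2 of 5 had reads, and Aloxe3 was the higher, with 1, 3 and 2 reads against 4, 4 and 4.

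Tbxas1, the thromboxane synthase, had a log2 fold change of -0.43 (adjusted p = 0.481, limma), with no overlap, which was -0.66 at a pseudocount of 0.1 and -0.65 with limma-voom. Cbr1 and Ptges3 had log2 fold changes of 0.32 and 0.06 and each changed sign when Asic3-null replicate 2 was left out. Hpgd, the dehydrogenase that inactivates prostaglandins, was the most abundant gene of the cyclooxygenase side, with 144, 494 and 507 RPKM in libraries labelled null and 766, 565 and 504 RPKM in libraries labelled WT. Asic3-null replicate 1 stood far below the other 5 libraries, and the groups overlapped (log2 fold change -0.86, standard error 0.43, adjusted p = 0.369, limma). Without that library the log2 fold change was -0.27. Ptgdr2, which shares exons with Ccdc86, had a log2 fold change of -0.26 and Zadh2 one of 0.16, which were -0.11 and 0.072 without WT replicate 2 and -0.41 and 0.26 without WT replicate 3. Ptgdr2 had -0.42 at a pseudocount of 0.1 and -0.41 with limma-voom.

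**Figure D4:**
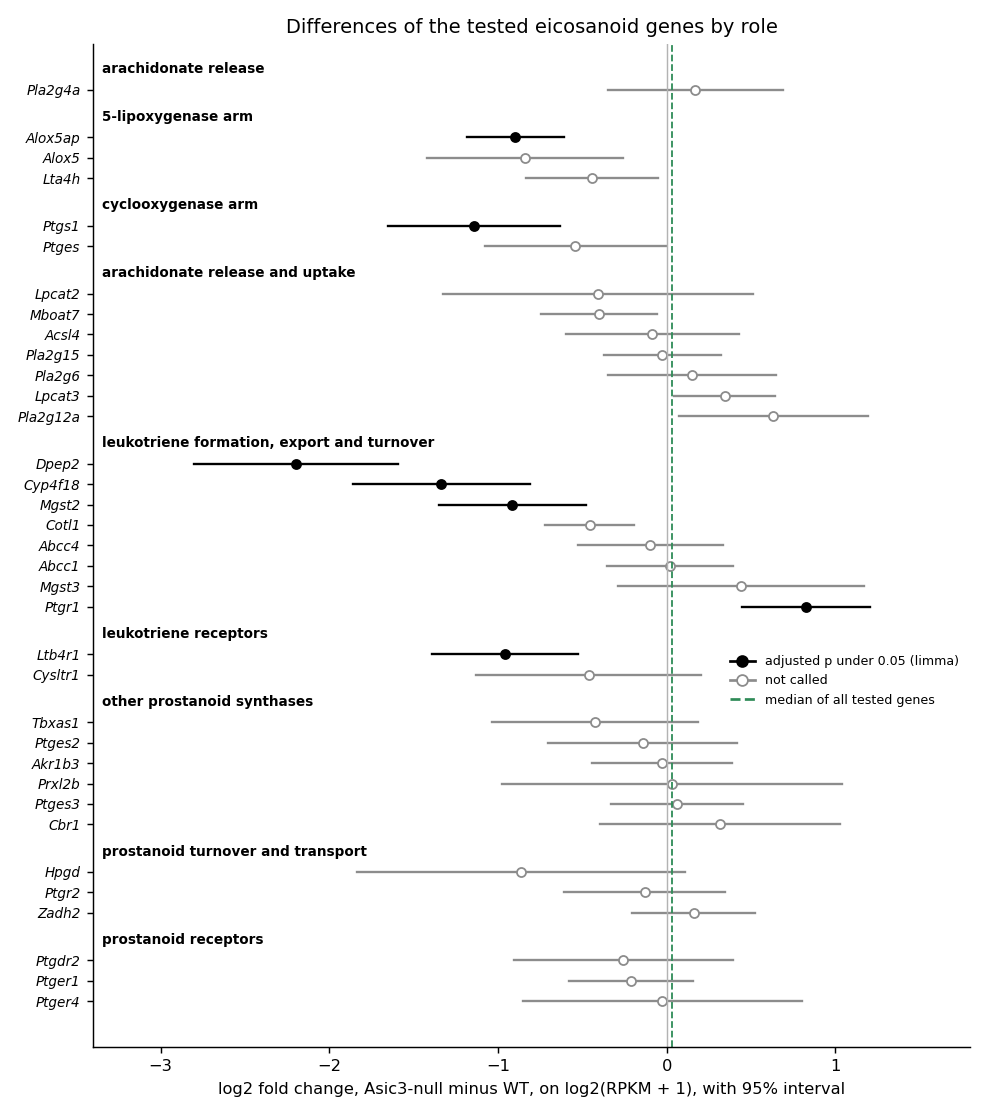
Log2 fold change (Asic3-null minus WT, on log2(RPKM + 1)) with its 95% interval for the 35 tested genes, the 6 synthesis genes at the top and the 29 others by role below, with filled points for genes at an adjusted p under 0.05 (limma). The dashed line is the median of all tested genes, 0.03, and 6 of the 7 filled points lie to its left.

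Several cell type markers moved with these genes. The neutrophil granule list had 11 of its 14 tested genes called lower, beside 2.82% of all tested genes. Those called were Elane, Ltf, Lcn2, Camp, Ngp, Cd177, Mmp8, Mmp9, S100a8, S100a9 and Itgb2l. The median log2 fold change was -2.73. Prtn3, Mpo and Ctsg were not called, with -0.38, -0.61 and 0.43 (unadjusted p = 0.041 for Ctsg, limma). The list summed to 3832 to 5092 RPKM against 8166 to 10143 RPKM. Its highest genes were Prtn3, Ctsg and Elane, with means of 1936, 1211 and 1168 RPKM. In the means Camp was 42.9-fold lower and Elane 1.83-fold. Itgam, which encodes the Mac-1 chain of the sort, had 12.9, 12.3 and 16.9 RPKM against 89.5, 85.7 and 55.1 RPKM and was called lower. Kit had 14.4, 17.9 and 20.4 RPKM against 9.09, 15.3 and 8.97 RPKM. The groups overlapped for Kit, which was not called (log2 fold change 0.64, adjusted p = 0.219, limma). Of 4 tested macrophage markers 1, Adgre1, was lower, with a summed level for the 10 listed of 10.6 to 18.4 RPKM against 31.2 to 35.9 RPKM. The part of these cell types in the lower Alox5ap and Ptgs1 was not tested.

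Several defining markers of other sources of these enzymes had no read, while others were detected. For platelets, which carry much PTGS1, the defining markers Pf4 and Ppbp had no read, and the 8 listed markers summed to 12.4 to 23.8 RPKM against 12.7 to 17.3 RPKM, with 1 of 2 tested (Gp1bb) lower. The other, Itga2b, was the highest of the list, with 10.43, 22.0 and 16.6 RPKM against 6.78, 10.8 and 5.65 RPKM, and was not called (log2 fold change 0.98, adjusted p = 0.145, limma). For mast cells and basophils, known for ALOX5, LTC4S and HPGDS, Prss34, Mcpt4, Tpsb2, Cma1 and Fcer1a had no read. Cpa3, the highest, had 65.1, 103 and 80.6 RPKM against 27.5, 101 and 36.3 RPKM. Mcpt8 had 49.9, 24.0 and 34.0 RPKM against 37.4, 26.9 and 20.6 RPKM. Hdc had 3.27, 11.3 and 6.63 RPKM against 2.40, 11.0 and 1.07 RPKM. None of these 3 tested markers was called (limma), nor had any an unadjusted p under 0.05. The list summed to 118 to 138 RPKM against 58.5 to 139 RPKM. For eosinophils, Ear1, Ccr3 and Il5ra had no read, while the 3 tested markers Prg2, Siglecf and Epx were detected. Prg2, the highest, had 19.1, 5.01 and 12.7 RPKM against 4.54, 43.5 and 15.1 RPKM. Siglecf had 6.36, 12.4 and 12.2 RPKM against 16.9, 34.2 and 10.02 RPKM, and Epx had at most 2.86 RPKM. None of the 3 was called (limma), and none had an unadjusted p under 0.05. The sums were 18.4 to 26.2 RPKM against 25.1 to 81.3 RPKM. WT replicate 2 was the highest library for each of the 3 and had the sum of 81.3 RPKM. T cell markers summed to at most 2.31 RPKM in any library, B cell markers to 95.8 to 170 RPKM against 126 to 177 RPKM with Ms4a1 at 0, and erythroid markers to 0.972 to 2.41 RPKM against 3.07 to 10.8 RPKM.

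By the pattern over the 6 libraries, the genes most like Alox5ap were Pgap6, Card6, Padi2 and Sh3bp4, and a gene with Entrez number 665689 that had no symbol. The measure was the root mean square difference of centered log2(RPKM + 1), which was 0.074 for Pgap6, 0.083 for Card6, 0.089 for Padi2, 0.093 for Sh3bp4 and 0.095 for the last. Among the synthesis genes Alox5 came at rank 186 of the 12037, Ptges at 261, Ptgs1 at 671 and Lta4h at 1289. Pla2g4a, at rank 8982, was far from the pattern. These ranks share the 6 libraries with the comparison above and describe these libraries alone.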

How the data were processed

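Total RNA of LICs was sequenced as 3 libraries labelled Asic3-null and 3 labelled WT, grouped by the sample labels, from which no sequencing batch could be read. The authors called bases with CASAVA 1.8.2 and aligned to GRCm38 with TopHat2 2.0.12, as the submitters' processing notes name them, after a TruSeq kit that does not mark strand. They deposited RPKM values for 27179 genes by Entrez number. The counting tool and annotation are not given in the sources used here.

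From the deposited RPKM values, whole reads were recovered for all 16825 genes above 0 within 0.0001 reads. The library sizes were 2315406, 2381861 and 2348251 (Asic3-null 1 to 3) and 2102707, 1947168 and 2367414 reads (WT 1 to 3). Testing took the 12037 genes whose mean RPKM was 1 or more, on log2(RPKM + 1), a scale that understates the change of low genes, with limma 3.58.1 in R 4.3.3 (intensity trend, no other term than the label, p values adjusted by Benjamini-Hochberg, threshold 0.05). Single genes were also compared by a two-sided exact permutation test. The steps were tested on simulated data. Tables used Python 3.11.15 with numpy 2.4.6 and pandas 2.3.3, and symbols, positions and promoters came from RefSeq for GRCm38.p6, which named 25275 genes.

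The 10 genes, the pathway lists and the marker lists were chosen with earlier results of these data known. The pathway genes named are those called and, in each role group, the 2 tested genes with the lowest p and the gene with the highest mean. Of the marker lists for platelets, mast cells and basophils, eosinophils, neutrophil granules and macrophages, the highest gene and the called genes are named. Some defining markers at 0 and some other detected markers are named too. The called and other detected markers were chosen after their values were seen. For T, B and erythroid cells only sums are given, with Ms4a1 at 0. The 13 alternatives were limma-voom on the recovered reads, 0.1 as the pseudocount, genes of low values kept, a minimum mean RPKM of 5, scaling by median ratios, no intensity trend, the replicate number as a block, and each of the 6 libraries left out. The study's other experiments were not analysed here. A few single genes under the naming rule are not reported here.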

Additional observations from a re-analysis of the deposited data

How the results depend on the processing

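None of the 13 alternatives turned the direction of Alox5ap, Alox5, Lta4h or Ptgs1, nor did any of the 12 that could be run for Ptges, which a mean RPKM of at least 5 leaves out. Alox5ap stayed called in all of them and Alox5 in none, with a log2 fold change of Alox5 between -1.03 and -0.59. The 2 synthesis genes called lower became 1 with no filter on low values and 1 with no intensity trend, and 1 to 2 when 1 library was left out. The 4 pathway genes called lower became 2, 2 and 1 with no filter, no intensity trend and the replicate block, and 1 to 2 with 1 library left out. With the block the adjusted p from limma was 0.0593 for Cyp4f18 and 0.0592 for Ltb4r1. The 1 pathway gene called higher became 0 under each of these 3 settings, and 0 to 1 with 1 library left out. Over all genes the count of 403 was 246 with the replicate block and 172 to 258 with 1 library left out, and it rose to 436 with median-ratio scaling and 543 with limma-voom. No synthesis gene was called higher by limma or limma-voom in any alternative. The sign turned for Pla2g4a without WT replicate 2 (log2 fold change -0.015, with a range up to 0.35 when 1 library was left out). It also turned without Asic3-null replicate 2 for Cbr1 (-0.012, range up to 0.63) and Ptges3 (-0.095, range up to 0.16). The causes of these changes were not tested, and leaving a library out also lowers the number of samples. Same-numbered libraries did not deviate together (correlations of 0.059, -0.059 and -0.123), beside -0.073 to 0.141 for libraries of different numbers. So few values show no pairing by replicate number but cannot exclude it. Fewer than 10 reads per library for Ltc4s, Alox15, Ptgs2 and Hpgds leave differences in these genes not detectable at this depth.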
